A study of Mus musculus with 12 samples.

Results

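The measurement described here is the genotype change in the ribosome-to-total RNA ratio of adult mouse hearts. For each gene, the log2 ratio of ribosome-bound RNA (IP) to total heart RNA (Input) in Rpl3l-/- hearts (KO) was taken, and the same ratio in wild-type hearts (WT) was subtracted from it. A negative value means that the gene's share of IP relative to its share of Input was lower in KO than in WT, and a positive value that it was higher. All 12 libraries of the series entered, 3 of each of 4 groups: WT Input, WT IP, KO Input and KO IP. The files list 55401 genes, of which 6596 passed 1 low-count filter and were tested.

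WT and KO are the only genotypes named, and the labels call the 3 libraries of each group biological replicates of adult heart, with no age, sex or strain. IP ribosomes were captured through an HA tag with an antibody, from hearts that met cycloheximide, a drug that holds ribosomes on mRNA, as soon as they were excised. IP RNA was cleaned up on RNeasy columns and Input RNA with TRIzol, and both were selected for poly(A) tails and read as nanopore direct cDNA. Capture and clean-up kit therefore change together with fraction, as does cycloheximide where Input hearts did not meet it. Both genotypes went through the same steps, and a fraction effect of equal size in both cancels in the difference of differences. The labels say neither which protein or cell type carries the tag, nor whether an Input and an IP library come from 1 heart.

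Rpl3l encodes RPL3L, a striated-muscle paralog of the ribosomal protein RPL3, which sits in the large subunit near the peptidyl transferase centre and takes the place of RPL3 in most ribosomes of adult heart and skeletal muscle. Capturing tagged ribosomes recovers the mRNAs they sit on, so a gene's IP to Input ratio reflects how much of its mRNA is ribosome-bound, relative to the average gene. It does not count ribosomes per mRNA, and a change shared by all genes cannot be seen, because libraries are scaled to a common level. In whole heart the ratio also depends on which cells carry the tag, and in bulk RNA fewer cells of a type and less RNA per cell cannot be told apart.

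Counts were scaled by library size to CPM, the usual unit of relative abundance. Library totals ran from 169359 counts in the shallowest KO Input library to 710868 in the deepest KO IP library, and every KO Input library (169359 to 291040) was shallower than every other library (356705 to 710868). Of 12 ventricular cardiomyocyte markers, 11 were detected in every group and Actc1 was listed at 0 in all libraries, as were all 37 listed genes of the mitochondrial chromosome. The 5 atrial markers summed to between 6700 and 11810 CPM in Input and to between 312 and 1092 CPM in IP. The share of counts from globin genes varied from 1.70% to 17.3% across libraries, within groups as well as between them.

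Of the 6596 genes, 6 passed an adjusted p of 0.05 (edgeR quasi-likelihood test of the genotype by fraction interaction, Benjamini-Hochberg), or 0.0910% of those tested. The ratio was lower in KO for 4 genes (0.0606%), Rpl3l, Ccn1, Rbp7 and Gm24270, and higher for 2 (0.0303%), Thrap3 and Cep68. At an unadjusted p under 0.05 there were 463 genes (7.02%), 228 higher (3.46%) and 235 lower (3.56%). A log2 difference of at least 1 in size was reached by 677 genes (10.3%). The median log2 difference over all genes tested was 0.01, with quartiles at -0.34 and 0.37. A typical gene's log2 difference had a standard error (SE) of 0.50, and its 95% interval reached 1.03 to each side. A difference under about that size did not reach even an unadjusted p of 0.05 in such a gene. The adjusted threshold asked for more: Cep68, the call with the largest p, had a log2 difference of 2.67 with an SE of 0.54. Among the 701 genes with a mean of at least 200 CPM the half-width was 0.52. The p-values cover the spread between libraries labelled as biological replicates, 3 a group.

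**Figure D1:**
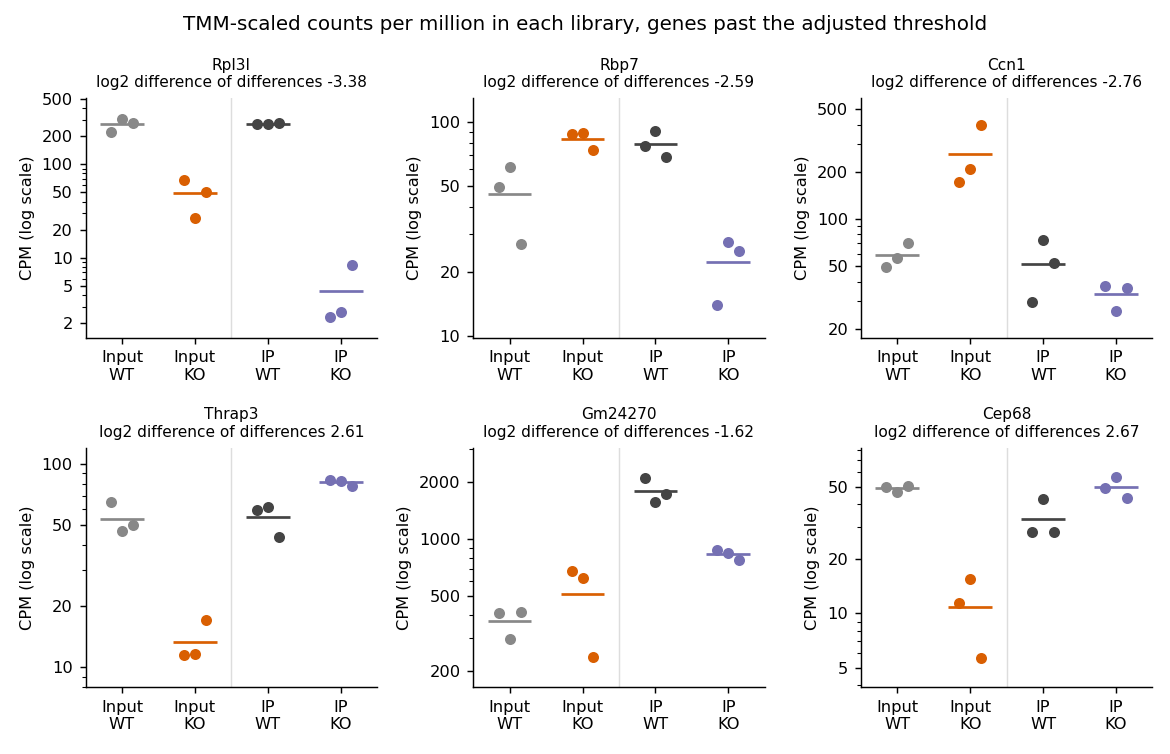
TMM-scaled CPM (log axis) of the 6 genes past the adjusted threshold, 1 point per library and a bar at each group's mean, in WT Input, KO Input, WT IP and KO IP. The KO and WT points of Rpl3l, Rbp7, Thrap3 and Cep68 do not overlap in either fraction. Those of Ccn1 are apart in Input only and those of Gm24270 in IP only.

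Rpl3l, the deleted gene (chr17:24727820-24736143, plus strand, GRCm38), had the smallest p. In IP it measured 269, 271 and 275 CPM in WT libraries 1 to 3 and 2.33, 2.62 and 8.31 CPM in KO. Input values were 222, 308 and 279 CPM in WT and 68.5, 27.0 and 51.1 CPM in KO. Every KO library was thus below every WT library in both fractions, and the residual KO signal in Input was above that in IP in all 3 libraries against all 3. In WT the gene was as abundant in IP as in Input (log2 ratio 0.01, SE 0.19), and in KO its log2 ratio was -3.37 (SE 0.48). The log2 difference was -3.38 (SE 0.52, a 10.4-fold lower ratio, adjusted p = 0.00538).

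The residual Rpl3l signal rests on few reads: 1, 2 and 5 counts in the 3 KO IP libraries and 18, 7 and 9 in the 3 KO Input libraries. The labels do not say which part of the gene was deleted, nor how reads that match both Rpl3l and its paralog Rpl3 were counted. Without KO Input library 1 the log2 difference was -2.99 and the adjusted p 0.0503, just above the threshold and so no call. It was a call without each of the other 11 libraries in turn. It was no call with limma-voom (-3.36, adjusted p = 0.376) or after all libraries were thinned to the smallest (-4.25, adjusted p = 0.0789).

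Rpl3 itself, the paralog expressed in most other tissues, was higher in KO in both fractions. It measured 79.9, 105 and 82.8 CPM in WT IP and 250, 215 and 221 CPM in KO IP. WT Input libraries held 219, 252 and 252 CPM and KO Input libraries 503, 443 and 443 CPM. KO and WT did not overlap in either fraction, and the 2 rises were of near size, 1.35 on the log2 scale in IP (adjusted p = 0.000171) and 0.95 in Input (adjusted p = 0.0102). Their difference was 0.41 (SE 0.24, 95% interval -0.10 to 0.91, adjusted p = 0.782), which did not pass the test.

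Ccn1 (chr3:145646976-145649981, minus strand) encodes a secreted matricellular protein that is induced within minutes by stretch and serum and is a target of the transcriptional coactivator YAP. Input libraries gave 49.9, 56.7 and 70.5 CPM in WT and 171, 208 and 398 CPM in KO. WT IP libraries held 29.6, 73.7 and 52.8 CPM and KO IP libraries 37.3, 26.2 and 36.6 CPM. All KO Input libraries were above all others, while the IP groups overlapped. The KO minus WT difference was 2.11 (SE 0.32, adjusted p = 0.0017) in Input and -0.65 (SE 0.35, adjusted p = 0.958) in IP. The log2 difference of the 2 was -2.76 (SE 0.48, a 6.76-fold lower ratio, adjusted p = 0.0112). Without WT IP library 2 the adjusted p was 0.0720 and without WT Input library 1 it was 0.0746.

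Rbp7 (chr4:149449687-149454978, minus strand) encodes a small retinoid-binding protein of the fatty acid-binding protein family that is found in capillary endothelium and fat. IP values were 77.0, 90.8 and 68.7 CPM in WT and 14.0, 27.5 and 24.9 CPM in KO. Input values were 49.9, 61.7 and 26.9 CPM in WT and 87.6, 88.6 and 73.9 CPM in KO. The groups did not overlap in either fraction, and KO was the lower in IP and the higher in Input. The KO minus WT difference was -1.77 (SE 0.30, adjusted p = 0.0104) in IP and 0.83 (SE 0.32, adjusted p = 0.580) in Input. The log2 difference was -2.59 (SE 0.45, a 6.03-fold lower ratio, adjusted p = 0.0112). Without WT Input library 1 the adjusted p was 0.0652. The labels do not say whether the tag is in endothelial cells. The 7 general endothelial markers summed to 547 to 644 CPM in the 6 IP libraries, with WT and KO overlapping, and their part in the result was not tested.

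Thrap3 (chr4:126164082-126202760, minus strand) encodes a nuclear arginine- and serine-rich protein of the splicing and Mediator machinery. WT Input libraries held 64.8, 46.9 and 50.4 CPM and KO Input libraries 11.4, 11.6 and 17.05 CPM. IP libraries gave 59.2, 61.7 and 44.0 CPM in WT and 84.0, 82.4 and 78.1 CPM in KO. KO was the lower in every Input library and the higher in every IP library. Each of the 3 KO Input values stands for 3 counts, the floor used here for a count, and the IP values stand for 25 to 63 counts. The log2 difference was 2.61 (SE 0.48, a 6.09-fold higher ratio, adjusted p = 0.0222), and the KO minus WT difference was -2.04 in Input (adjusted p = 0.0288) and 0.56 in IP (adjusted p = 0.920). Leaving out WT IP library 3, WT Input library 1, KO Input library 1 or KO Input library 2 gave adjusted p-values of 0.0781, 0.116, 0.110 and 0.0944. An annotated small nuclear RNA gene, Gm25323, lies inside Thrap3 on the same strand, and reads of the 2 could not be told apart.

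Cep68 (chr11:20227037-20249429, minus strand) encodes a centrosomal protein of the linker that holds the 2 centrioles together. Input libraries gave 49.9, 46.9 and 50.4 CPM in WT and 11.4, 15.4 and 5.68 CPM in KO. WT IP libraries held 28.1, 42.8 and 28.2 CPM and KO IP libraries 49.0, 56.3 and 43.2 CPM. The genotypes did not overlap in either fraction, by a wide margin in Input and a narrow one in IP. The KO Input values stand for 3, 4 and 1 counts. Its log2 difference was 2.67 (SE 0.54, a 6.35-fold higher ratio, adjusted p = 0.0464). It was a call without WT IP library 2 (adjusted p = 0.0472) and in none of the 11 other fits that left out 1 library, where the adjusted p ran from 0.0518 to 0.182.

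Gm24270 (chr9:56223715-56223771, minus strand) is a locus of 57 bases annotated as a microRNA gene, inside the gene Peak1. Its sequence is shown because it decides how far the value can be read, since other loci hold the same letters. It is from GENCODE M21 on GRCm38, 5′ to 3′, all in lower case because the whole run is shared.
Gm24270: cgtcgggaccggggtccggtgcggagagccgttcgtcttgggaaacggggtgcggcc
Of these bases 73.7% are G or C. Gm23935 (chr16:11144125-11144181) and Gm24245 (chr4:139338304-139338360) hold the identical 57 bases, and Gm24187 (chr13:9834469-9834525) differs at 1 base.

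In IP, Gm24270 measured 2108, 1571 and 1734 CPM in WT and 873, 849 and 776 CPM in KO. Input values were 406, 296 and 413 CPM in WT and 678, 628 and 239 CPM in KO. The IP groups did not overlap and the Input groups did, with KO Input library 3 below all 3 WT libraries. The log2 difference was -1.62 (SE 0.32, adjusted p = 0.0464). The identical locus Gm23935 took 87707 counts over the 12 libraries against 5605 for Gm24270, and its log2 difference was -0.80 (SE 0.40, adjusted p = 0.727). Gm24187 stood at 0.64 (SE 0.63, adjusted p = 0.888). With the 4 loci merged into 1 row, an alternative chosen after seeing the data, the log2 difference was -0.85 (adjusted p = 0.708). Peak1, the host gene, had a log2 difference of 1.10 (SE 0.74, adjusted p = 0.819). Without KO Input library 3, Gm23935 was called as well, at -1.19 (adjusted p = 0.0419). Gm24270 was a call without that library (adjusted p = 0.000205) and in none of the 11 other fits that left out 1 library, where the adjusted p ran from 0.0518 to 0.204. A poly(A)-selected library is not made to hold mature microRNAs, so the value is that of reads placed on the locus.

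The difference of differences can arise in either fraction. Over all 6596 genes the genotype difference was larger in Input than in IP for 3903 genes (59.2%). The Input difference also had the larger SE, with a median of 0.39 against 0.31 in IP. Among the 463 genes with an unadjusted p under 0.05, Input had the larger genotype difference for 164 of 228 genes with a higher KO ratio (71.9%) and 160 of 235 with a lower one (68.1%). The KO minus WT differences in IP and Input had opposite signs for 204 of the 228 (89.5%) and for 213 of the 235 (90.6%), compared with 51.5% of all genes tested. Selecting genes on IP minus Input favours opposite signs, so these shares are a description only. Among the 6 calls, Input had the larger difference for Ccn1, Thrap3 and Cep68, and IP for Rpl3l, Rbp7 and Gm24270.

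**Figure D2:**
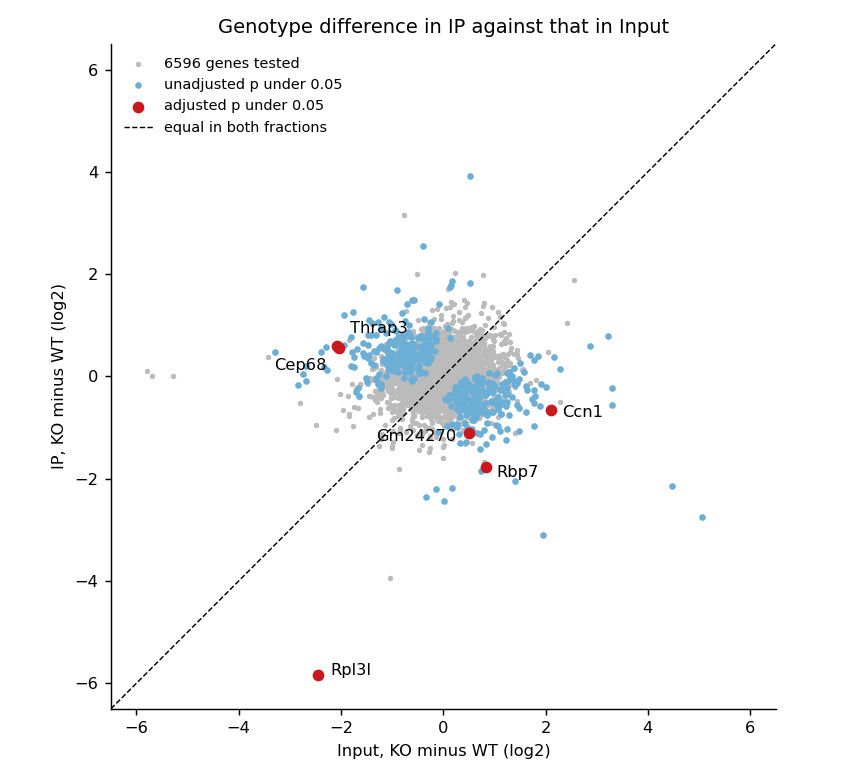
KO minus WT log2 difference in Input (horizontal) against that in IP (vertical), 1 point for each of the 6596 genes tested, with unadjusted and adjusted p under 0.05 in blue and red. The vertical offset from the dashed diagonal is the difference of differences. Rpl3l is the only red point at which both fractions were lower in KO, and the other 5 lie where the fractions differ in sign.

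The genes next in order with a lower ratio in KO did not pass the threshold. Sgk1, a kinase gene induced by glucocorticoids and osmotic stress, measured 37.4, 44.4 and 47.0 CPM in WT Input and 87.6, 204 and 193 CPM in KO Input. IP values were 17.8, 29.1 and 33.5 CPM in WT and 28.0, 15.7 and 11.6 CPM in KO. Only the Input groups were apart, and the log2 difference was -2.48 (SE 0.54, adjusted p = 0.0984). Tfrc, the transferrin receptor whose mRNA carries iron-response elements, had a log2 difference of -1.68 (SE 0.42, adjusted p = 0.247). Gpt2, an alanine aminotransferase, stood at -2.01 (SE 0.52, adjusted p = 0.247) and Sla2, an adaptor of lymphocyte signalling, at -3.53 (SE 0.90, adjusted p = 0.247). The Sla2 value rests on few Input counts, 0, 2 and 1 in WT and 9, 1 and 10 in KO. Pm20d2, an amidase gene, had the largest value of these, -6.62 (SE 1.67, adjusted p = 0.247). It rested on single libraries, 137 CPM in WT IP library 3 and 123 CPM in KO Input library 2, with the other 10 between 0 and 23.7 CPM.

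The genes next in order with a higher KO ratio did not pass either. Prg4, which encodes the joint lubricant lubricin, measured 47.4, 39.5 and 40.3 CPM in WT Input and 15.2, 19.3 and 5.68 CPM in KO Input. IP libraries gave 11.8, 13.7 and 5.28 CPM in WT and 53.7, 14.4 and 43.2 CPM in KO. KO was the lower in each Input library and the higher in each IP library, and the log2 difference was 3.31 (SE 0.74, adjusted p = 0.126). Myocd, the cardiac and smooth muscle coactivator myocardin, stood at 3.14 (SE 0.82, adjusted p = 0.247), with 26.7, 7.70 and 0 CPM in KO Input. Srcap, a chromatin remodeller, stood at 2.13 (SE 0.54, adjusted p = 0.247), Cic, a transcriptional repressor, at 2.22 (SE 0.60, adjusted p = 0.315), and Akap9, a centrosomal scaffold for protein kinase A, at 2.11 (SE 0.58, adjusted p = 0.324). Nipsnap2, which encodes a mitochondrial protein, stood at 0.79 (SE 0.22, adjusted p = 0.359). Cd74, the invariant chain of antigen presentation, stood at 1.22 (SE 0.31, adjusted p = 0.247). Most of these values rest on few KO Input counts: 4, 5 and 1 for Prg4, 7, 2 and 0 for Myocd and 3, 4 and 3 for Srcap. Cic had 2, 4 and 2 counts there and Akap9 2, 7 and 4. Higher counts were found for Cd74 (27, 36 and 16) and Nipsnap2 (154, 183 and 94).

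Myom2, which encodes the M-band protein myomesin 2 of the sarcomere, had the smallest p of the abundant muscle genes with a higher ratio. WT IP libraries held 342, 324 and 333 CPM and KO IP libraries 495, 589 and 512 CPM. WT Input libraries held 464, 459 and 437 CPM and KO Input libraries 278, 420 and 409 CPM. The 2 genotypes did not overlap in either fraction. The log2 difference was 0.98 (SE 0.23, adjusted p = 0.182).

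Immediate early genes are transcribed within minutes of a stimulus, and their mRNAs are short-lived. Of 24 listed, 16 were tested and none was called. At an unadjusted p under 0.05, 7 of the 16 had a lower ratio in KO and none a higher one, against 3.56% and 3.46% of all genes tested. The median log2 difference of the 16 was -0.73, compared with 0.01 over all genes, and lay between -1.02 and -0.41 under the 26 alternatives tried. The median KO minus WT difference was 0.97 in Input and 0.36 in IP. In WT the median log2 IP to Input ratio was -0.37, and in KO it was -1.40.

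The 2 members with the smallest p were Ier2 and Junb. Ier2, an early transcriptional regulator, measured 19.9, 24.7 and 47.0 CPM in WT Input and 83.8, 104 and 119 CPM in KO Input. IP values were 14.8, 24.0 and 28.2 CPM in WT and 16.3, 22.2 and 14.96 CPM in KO. Its log2 difference was -2.05 (SE 0.53, adjusted p = 0.247). Junb, which pairs with Fos proteins in AP-1, measured 27.4, 17.3 and 30.2 CPM in WT Input and 129, 77.0 and 131 CPM in KO Input. IP libraries gave 16.3, 32.6 and 19.4 CPM in WT and 25.7, 28.8 and 33.2 CPM in KO, and its log2 difference was -1.79 (SE 0.51, adjusted p = 0.372). For both genes, the 3 KO Input libraries were above the 9 others, and the IP groups overlapped. Egr1 and Nr4a1, a pair of stimulus-induced transcription factors chosen after their values were seen, stood at -2.44 (SE 0.84) and -2.29 (SE 0.80), with adjusted p-values of 0.530 and 0.539. The listed members were not uniform, for Klf6, Fosl2 and Jund had log2 differences of 0.06, 0.10 and 0.40. Their KO minus WT differences in Input were small, at 0.36, 0.04 and 0.30.

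**Figure D3:**
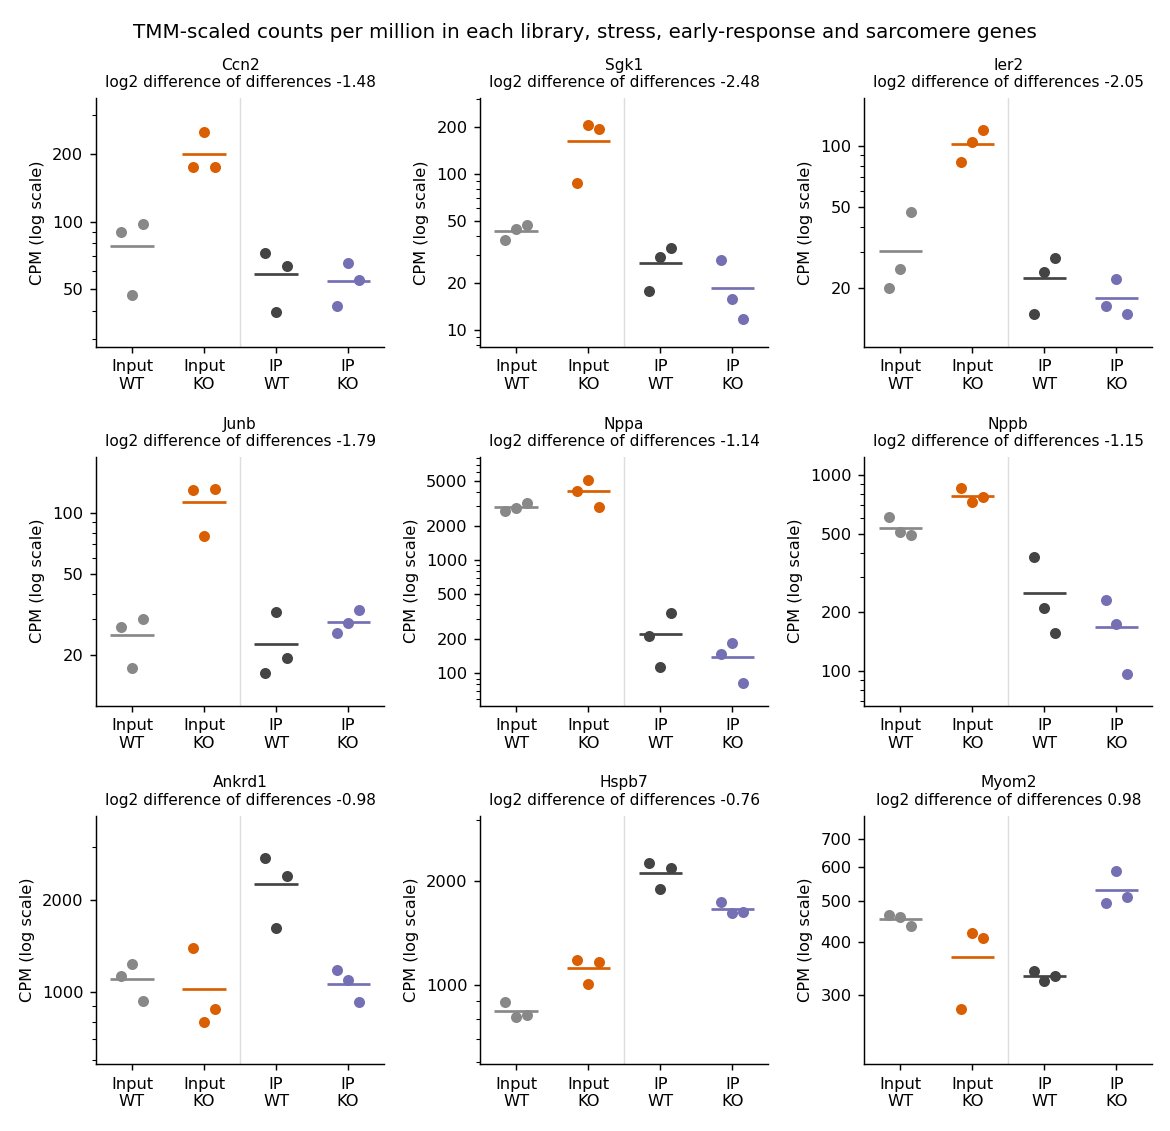
TMM-scaled CPM (log axis) of 9 genes that did not pass the adjusted threshold, 1 point per library and a bar at each group's mean. Ccn2, Sgk1, Ier2 and Junb have their 3 KO Input points above all WT Input points, with overlapping IP groups, while Ankrd1, Hspb7 and Myom2 have IP groups that do not overlap.

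YAP is a coactivator that works through TEAD factors and turns on matrix and cytoskeletal genes under stretch. Of 13 listed targets and matricellular genes, 11 were tested. Ccn1 was called, and with it 4 had a lower ratio at an unadjusted p under 0.05 and none a higher one, against 3.56% and 3.46% of all genes tested. The median log2 difference was -0.74, and between -1.19 and -0.57 under the 26 alternatives. Ccn2, a connective tissue growth factor and close relative of Ccn1, measured 89.7, 46.9 and 97.4 CPM in WT Input and 175, 250 and 176 CPM in KO Input. WT IP libraries held 72.5, 39.4 and 63.4 CPM and KO IP libraries 42.0, 65.4 and 54.9 CPM. As for Ccn1, only the Input groups were apart, and the log2 difference was -1.48 (SE 0.40, adjusted p = 0.324). Axl and Tead1, the latter a TEAD factor itself, stood at 0.05 (SE 0.44) and 0.00 (SE 0.32).

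Promoter windows were read for this list because most of its members lay on 1 side, and also for the immediate early and large-subunit ribosomal protein genes. The letters GGAATG, the recognition sequence of TEAD factors, were searched on both strands of the 300 bases from 250 before to 50 after each RefSeq start site (GRCm38.p6). Of the 11 tested members, 7 had a window, and all 7 held the letters at least once, compared with 748 of 5142 tested genes with a window (14.5%) and 1 of 14 immediate early genes (7.14%). The list was drawn up from known targets of TEAD factors, and a match is a description, not a site. In 40 bases around the match, 5′ to 3′ on the gene's strand, the capitals mark the letters for 6 of the 7 genes, with CATTCC where they lie on the opposite strand.
Ccn1 (chr3:145650066-145650105): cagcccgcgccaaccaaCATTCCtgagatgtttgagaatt
Amotl2 (chr9:102717722-102717761): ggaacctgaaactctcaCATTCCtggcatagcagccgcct
Crim1 (chr17:78200152-78200191): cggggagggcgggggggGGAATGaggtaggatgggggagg
Ankrd1 (chr19:36120032-36120071): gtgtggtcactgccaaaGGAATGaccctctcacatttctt
Axl (chr7:25788944-25788983): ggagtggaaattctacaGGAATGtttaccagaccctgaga
Ptpn14 (chr1:189728105-189728144): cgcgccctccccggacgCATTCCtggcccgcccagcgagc
For the remaining gene, Lats2, the match lay past the start site in 1 of its 2 windows and is not printed. The letters were there both in Ccn1, at -2.76, and in Axl and Ptpn14, whose log2 differences of 0.05 and 0.45 lay on the other side of 0. A CArG box (CC and GG around a run of A or T), TGACGTCA and TGACTCA were searched too, and the 7 genes held none of them. Their shares were 7.14%, 14.3% and 0% of the 14 immediate early genes. They were 2.94%, 11.8% and 5.88% of 34 large-subunit genes, and 1.89%, 3.75% and 4.45% of tested genes with a window. GGAATG was in 5.88% of the large-subunit genes.

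The cardiac stress and fetal programme is a set of genes re-expressed in the strained ventricle. Of 23 listed, 19 were tested, none was called, and 4 had a lower ratio in KO at an unadjusted p under 0.05, against 3.56% of all genes tested. Of these 4, Ccn2 and Ankrd1 are also on the YAP list and were counted there. The median was -0.21, between -0.47 and -0.04 under the alternatives. Nppb, which encodes the B-type natriuretic peptide, measured 608, 513 and 490 CPM in WT Input and 853, 728 and 767 CPM in KO Input. IP values were 380, 209 and 157 CPM in WT and 231, 173 and 96.4 CPM in KO. The Input groups were apart and the IP groups overlapped, with a log2 difference of -1.15 (SE 0.36, adjusted p = 0.425).

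Nppa, the atrial natriuretic peptide gene, measured 2752, 2880 and 3191 CPM in WT Input and 4105, 5142 and 2926 CPM in KO Input. IP libraries gave 215, 115 and 342 CPM in WT and 149, 184 and 83.1 CPM in KO. Both fractions overlapped between genotypes, and the log2 difference was -1.14 (SE 0.39, adjusted p = 0.529). Nppa is also an atrial gene, and the atrial markers named above were lower in IP than in Input in both genotypes. They summed to 6700 to 8753 CPM in WT Input and 8143 to 11810 CPM in KO Input. Their part in the Nppa value was not tested. The 12 tested atrial genes had a median log2 difference of -0.18, which lay between -0.50 and 0.50 under the 26 alternatives. It was above 0 in 1 of them, without WT IP library 3. At an unadjusted p under 0.05, 3 of the 12 had a lower and 1 a higher ratio, against 3.56% and 3.46% of all genes tested.

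Ankrd1, a stretch-responsive cofactor of the cardiomyocyte nucleus and sarcomere, differed mainly in IP. It measured 2747, 1619 and 2405 CPM in WT IP and 1181, 1094 and 926 CPM in KO IP. Input libraries gave 1134, 1240 and 934 CPM in WT and 1401, 801 and 881 CPM in KO. The IP groups did not overlap, the Input groups did, and the log2 difference was -0.98 (SE 0.29, adjusted p = 0.399).

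Among 19 tested genes of the thick filament and sarcomere scaffold, 3 had a higher and 2 a lower ratio at an unadjusted p under 0.05. Over all genes tested the shares were 3.46% and 3.56%. The median was -0.05, and that of the 8 thin filament genes was -0.04. Myh6, the adult cardiac myosin heavy chain, stood at 0.63 (SE 0.26, 95% interval 0.10 to 1.17, adjusted p = 0.624) and Ttn, the giant spring protein titin, at 0.56 (SE 0.25, adjusted p = 0.690). The Ttn value ran from 0.31 to 0.67 when 1 library was left out, and it turned to -0.21 when a trend of CPM with transcript length was removed from each library. Myh7, the slow and fetal heavy chain, stood at 0.84 (SE 0.56, adjusted p = 0.808). Its KO Input library 3 held 17.05 CPM against 282 and 358 CPM in the rest of that group, and without this library the value was 0.37. Myl2, the ventricular regulatory light chain, stood at -0.08 (95% interval -0.58 to 0.41, adjusted p = 0.972), at 11626 to 16184 CPM over the 12 libraries. Atp2a2, the calcium pump of the sarcoplasmic reticulum, stood at -0.18 (95% interval -0.69 to 0.33, adjusted p = 0.927). The intervals of the last pair of genes leave out a change of ratio by a log2 unit in either direction. The 18 calcium handling and conduction genes had a median of -0.16, with 1 lower at an unadjusted p under 0.05, against 3.56% of all genes tested.

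Small heat shock proteins of muscle protect sarcomere and filament proteins from aggregation. Hspb7 measured 2257, 1902 and 2178 CPM in WT IP and 1736, 1619 and 1622 CPM in KO IP. Input values were 897, 809 and 823 CPM in WT and 1184, 1009 and 1171 CPM in KO. KO was the lower in each IP library and the higher in each Input library, and the log2 difference was -0.76 (SE 0.21, adjusted p = 0.324). Hspb8 had the same order in both fractions, with 589 to 644 CPM in KO IP against 673 to 807 CPM in WT IP, and a log2 difference of -0.71 (SE 0.22, adjusted p = 0.409). Cryab, the abundant small heat shock protein of muscle, stood at 0.21 (SE 0.24) and Hspb1 at 0.23 (SE 0.28). The 22 tested chaperones had a median of 0.06, with 11 above and 11 below 0.

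The cytosolic ribosomal protein genes carry a tract at the cap that places them under growth control. Of 82 listed, 79 were tested, and Rpl3l was the only call. The median log2 difference was 0.08 for the 47 large-subunit genes and 0.07 for the 32 small-subunit genes, and each changed sign under at least 1 alternative. Leaving out Rpl3l, the other 78 ran from -0.99 to 1.26, and 48 were positive, against 3338 of all 6596 genes tested. Their median IP to Input log2 ratio was -1.43 in WT and -1.37 in KO, so these mRNAs were scarce in IP in both genotypes to a like extent. The largest values were 1.26 for Rpl9 (SE 0.45, adjusted p = 0.561) and -0.99 for Rpl22l1 (SE 0.40, adjusted p = 0.620). The 42 translation factors had a median of 0.12, with Eif4ebp2, an inhibitor of cap binding, at 1.32 (SE 0.44, adjusted p = 0.524) and Eif3l, an initiation factor subunit, at -0.98 (SE 0.42, adjusted p = 0.668).

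Genes with a known translational switch were looked at because their ratio could move without their level. In the integrated stress response, upstream reading frames hold Atf4 back until stress. The list also holds target genes of ATF4, which need not have such a switch. The 10 tested members had a median of 0.10, and Atf4 stood at -0.82 (SE 0.39, adjusted p = 0.711). Atf4 measured 99.2, 101 and 66.9 CPM in WT IP and 93.3, 47.1 and 54.9 CPM in KO IP, which overlapped. Ddit3, on the same list, lay on the other side at 1.48 (SE 0.74, adjusted p = 0.722). Iron-response elements in the leader hold back ferritin mRNA. The 9 tested genes of that list had a median of 0.04, with Fth1 at -0.19 (SE 0.30) and Ftl1 at 0.17 (SE 0.38). Selenoproteins, which recode a stop codon, had a median of -0.10 over 16 genes. Gpx4, a lipid peroxidase, stood at -0.59 (SE 0.24, adjusted p = 0.624).

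Splicing regulators process pre-mRNA in the nucleus. Of 48 tested, 30 had a value above 0 and 18 below, against 3338 and 3258 of all genes tested. Thrap3 was called, and with it 4 had a higher ratio in KO at an unadjusted p under 0.05 and none a lower one, against 3.46% and 3.56% of all genes tested. The median was 0.27, between 0.14 and 0.32 under the alternatives, compared with 0.01 over all genes. Ddx17, an RNA helicase, measured 57.7, 66.8 and 63.4 CPM in WT IP and 91.0, 81.1 and 101 CPM in KO IP. WT Input libraries held 227, 242 and 319 CPM and KO Input libraries 187, 223 and 250 CPM. The IP groups were apart, the Input groups overlapped, and the log2 difference was 0.79 (SE 0.29, adjusted p = 0.561). Centrosome and cilium genes had the largest median, 1.11 over 7 tested of 17 listed, between 0.90 and 1.83 under the alternatives. Cep68 was called, and Akap9 and 2 more were higher at an unadjusted p under 0.05, against 3.46% of all genes tested. That list was drawn up with Cep68 known as a call, and 10 of its 17 genes had too few counts to be tested.

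**Figure D4:**
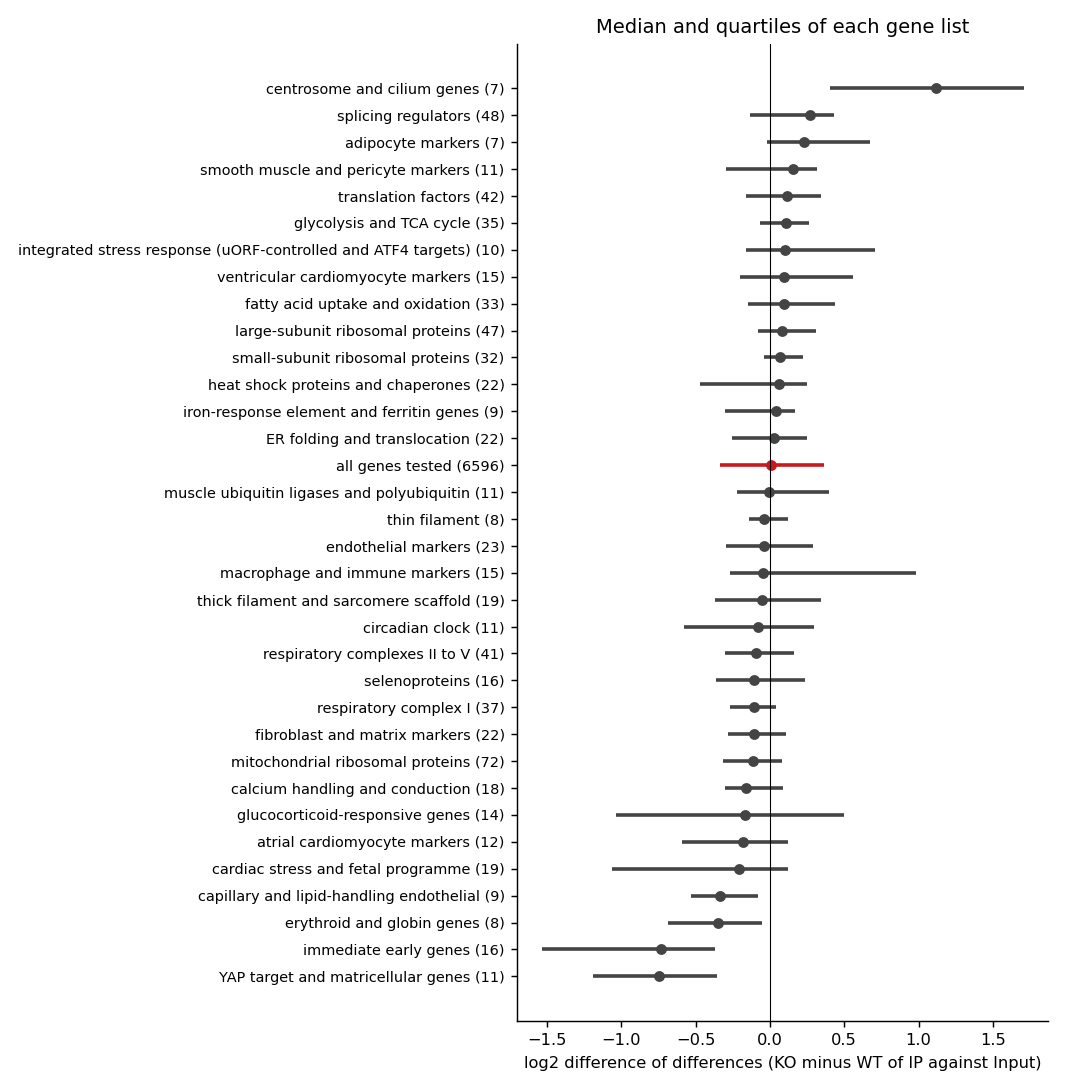
Median (point) and quartiles (line) of the log2 difference of differences for each of 33 gene lists, with the number of tested members in brackets, and for all 6596 genes in red. YAP target and immediate early genes lie lowest, at -0.74 and -0.73, and centrosome genes highest, at 1.11.

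Several lists held no call and had medians close to that of all genes: 0.03 for 22 genes of ER folding, -0.01 for 11 of muscle ubiquitin ligases, -0.08 for 11 clock genes, -0.17 for 14 glucocorticoid-responsive genes, 0.15 for 11 smooth muscle genes and 0.10 for 15 ventricular genes. Each of these medians changed sign under at least 1 alternative, and the glucocorticoid median ran from -0.29 to 0.75. Of those 14 genes, 3 had a lower and 1 a higher ratio at an unadjusted p under 0.05, against 3.56% and 3.46% of all genes tested. Sgk1, at -2.48, was the lowest of them. Energy metabolism also lay near the median of all genes. The median was -0.11 for 37 complex I genes, -0.10 for 41 genes of complexes II to V, 0.09 for 33 genes of fatty acid uptake and oxidation and 0.11 for 35 genes of glycolysis and the TCA cycle, and none was called. Mitochondrial ribosomal proteins had a median of -0.11 over 72 genes, with 48 below 0, against 3258 of all 6596 genes tested. Mrpl20 stood at -1.002 (SE 0.31, adjusted p = 0.423). Atp5l, an ATP synthase subunit, stood at -0.77 (SE 0.24, adjusted p = 0.425), and Hadhb, the thiolase of the trifunctional protein, at 0.51 (SE 0.22, adjusted p = 0.668).

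Lists of other heart cells were described in the same way. A shift of cell make-up that both fractions share cancels in the difference of differences and is not seen here. The 9 tested capillary and lipid-handling endothelial genes all had a value below 0, as had 3258 of all 6596 genes tested. Their median was -0.34, between -0.51 and -0.23 under the alternatives. Rbp7 was the only call among them, and Fabp4, a fatty acid-binding protein, stood at -0.53 (SE 0.26, adjusted p = 0.711). The 23 general endothelial genes had a median of -0.04, and the 22 fibroblast genes -0.11. Apold1, an endothelial gene of the early response, stood at -3.85 (SE 0.89, adjusted p = 0.169), on 41.9, 50.1 and 51.1 CPM in KO Input against 0, 4.93 and 10.1 CPM in WT Input.

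The 15 macrophage and immune genes had a median of -0.05, which was above 0 under 15 of the 26 alternatives. A higher ratio at an unadjusted p under 0.05 was found for 4 of the 15, against 3.46% of all genes tested. They were Cd74, H2-Aa, H2-Ab1 and H2-Eb1, genes of MHC class II peptide presentation, a grouping made after their values were seen. H2-Aa stood at 1.35 (SE 0.44, adjusted p = 0.483) and the others between 1.11 and 1.22. Cd74 measured 214, 148 and 296 CPM in WT Input and 103, 139 and 90.9 CPM in KO Input, and its IP values were 181, 194 and 174 CPM in WT and 245, 199 and 226 CPM in KO. The genotypes did not overlap in either fraction. The macrophage genes Lyz2, C1qa and Cd163 stood at -0.15, -0.15 and -0.05. The 8 erythroid genes had a median of -0.35 that ran from -1.51 to 0.91 and changed sign under 4 of 25 alternatives. The 7 adipocyte genes had a median of 0.23 that ran from -0.25 to 1.26 and changed sign under 3 of 26.

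Long transcripts tended to have a higher KO ratio. In 5 bins of equal size by the length of the longest annotated transcript, the median log2 difference was -0.04, -0.01, -0.00, -0.01 and 0.14 from the shortest to the longest, the last bin starting at 5322 bases. The share of genes with a higher ratio at an unadjusted p under 0.05 was 2.35% in the shortest bin and 4.55% in the longest, and the share with a lower ratio 5.08% and 2.20%. Across genes, Spearman's rho was 0.10 for transcript length, 0.10 for coding length, 0.03 for GC content and -0.06 for mean CPM. Genes are not independent replicates and share the 12 libraries, so these are descriptions with no test. In the longest bin the median KO minus WT difference was 0.10 in IP and -0.04 in Input.

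Library make-up moved with this pattern. Genes with transcripts over 5000 bases took 12.1% to 15.7% of counts in KO IP, 10.7% to 13.5% in WT IP, 9.54% to 11.2% in WT Input and 9.79% to 12.3% in KO Input. The IP groups overlapped, as did the Input groups. Nanopore cDNA length depends on RNA integrity and reverse transcription, and the part of these in the ratio was not tested. When a trend of CPM with length was removed from each library, the calls numbered 4. Thrap3 was still called among them at 2.60, with transcripts of 4378 bases, while Cep68, with 4804 bases, stood at 2.65 and an adjusted p of 0.0605. Gm24270, with 57 bases, stood at -1.11 and an adjusted p of 0.359.

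**Figure D5:**
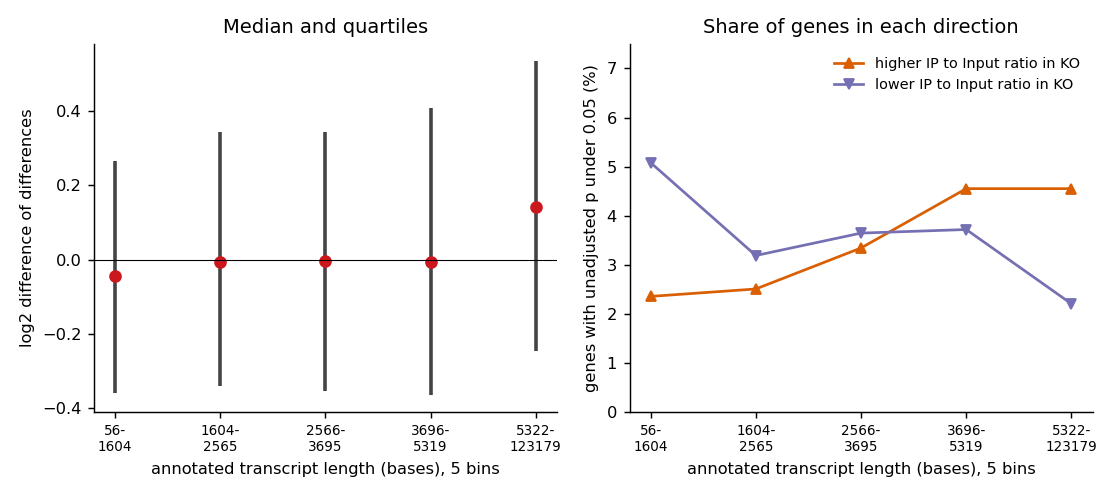
Left, median (point) and quartiles (line) of the log2 difference of differences in 5 equal bins of annotated transcript length in bases. Right, percent of genes in each bin with an unadjusted p under 0.05 in each direction. The median of the longest bin was 0.14, and the shares of higher and lower genes cross between the shortest and the longest bin.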

How the data were processed

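Each deposited file holds raw counts per gene for 1 library. Per the submitters' processing notes, minimap2 2.14, DESeq2 1.34.0 and build GRCm38 were used, and the counting tool and its rule are not given in the sources used here. Gene IDs were matched to GENCODE M21, 54349 with their version, 792 without it and 260 not at all. Low-count genes were dropped with filterByExpr (minimum count 10, minimum total 15), and the rest fitted with edgeR 4.0.16 (limma 3.58.1, R 4.3.3), with TMM factors and 1 mean per group over the 12 libraries. The biological coefficient of variation was 18.2%, and 3 counts stood for 3.92 to 17.05 TMM-scaled CPM. The interaction was tested with a quasi-likelihood F test with Benjamini-Hochberg adjustment, and the same steps were tested on simulated data. CPM values are TMM-scaled. Text names Rpl3l, Rpl3, every call, the 8 next genes a direction (at least 20 CPM on average), the 2 smallest p-values of each list and 8 set heart genes, and marks any other. A gene that the rule would name is not reported here. Members and lists were chosen with earlier results of these data known. Alternatives changed normalization, filter, test, block, depth, composition, length and libraries. Same-numbered Input and IP libraries were not treated as pairs.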

Additional observations from a re-analysis of the deposited data

Results flagged for a closer look

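For 6 genes the genotype difference in IP and that in Input differed by the interaction test itself. The log2 difference was -3.38 for Rpl3l, -2.59 for Rbp7, -2.76 for Ccn1, -1.62 for Gm24270, 2.61 for Thrap3 and 2.67 for Cep68. Rpl3l is the deleted gene and its KO values rest on 1 to 18 counts. For Thrap3 and Cep68 the KO Input values rest on 1 to 4 counts in each library. The sequence of Gm24270 is shared by other loci.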

How the results depend on the processing

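The 6 calls (2 higher, 4 lower) became 37 with no count filter (15 higher and 22 lower of 16598 genes), 1 with limma-voom (0 higher and 1 lower, Rbp7), 0 after thinning to the smallest library (0 higher and 0 lower of 3177 genes, 197 of them with an unadjusted p under 0.05), and 2 without library 3 of both KO Input and WT Input (0 higher, 2 lower). Genes called higher numbered 1 with a stricter filter, 1 with the length trend removed, 1 with the 57-base loci merged (chosen after seeing the data) and 0 with DESeq2, which called 5 genes in all. Leaving out 1 library at a time gave 1 to 8 calls, 0 to 2 of them higher and 1 to 6 lower, with 1 without WT Input library 1 and 3 without WT IP library 3. Of the 26 alternatives, Rpl3l and Rbp7 were called in 23 each, Ccn1 in 21, Thrap3 in 17, Gm24270 in 6 and Cep68 in 6 of 24, and no call changed sign. The cause was not tested.

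With replicate number as a block, the genes called higher numbered 1, and with genotype and number as a block 0, of 4 calls each. Same-numbered Input and IP libraries did not deviate together (6 correlations from -0.062 to -0.012 over 3029 genes), so the numbers were not taken as pairs, and a call lost under the block is not read as a weaker effect. Depth was lowest in KO Input, where the smallest library held 169359 counts.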
